A study of Mus musculus with 6 samples.

Results

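The genes described here encode the translation initiation factors (eIF) and elongation factors (eEF) of the mouse, together with the kinases and methyltransferases named after them. They were chosen by symbol alone: every row of the deposited table whose symbol begins with Eif or Eef followed by a digit, without pseudogene symbols, the eIF4E-binding proteins and the paired X- and Y-linked genes for eIF2 gamma. The rule gave 65 rows for 63 genes among 47086 loci, because *Eif3i* and *Eif5a* have 2 loci each. For those genes the locus with the higher mean was taken. Of the 63 genes, 59 reached a mean of 1 FPKM in at least 1 genotype and were tested. FPKM counts sequenced fragments per length of transcript and per amount of sequence in a library, so that levels can be compared between genes. RNA was measured by RNA-seq in primary hippocampal cultures from newborn C57BL/6 mice, collected after 14 days in vitro without drug treatment. There were 3 wild type (WT) libraries and 3 libraries from *Fmr1* knockout (*Fmr1* KO) cultures. *Fmr1* encodes FMRP, an RNA-binding protein that represses translation and is lost in fragile X syndrome. The study's mice were bred from heterozygous mothers and WT fathers and are described in general as male KO mice and their WT littermates. Neither the sex nor the litter of the newborn pups behind each library is given in the sources used here, so the p-values measure the spread between libraries, which may be partly technical.

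Translation starts when eIF4E binds the cap of an mRNA and, through the scaffold eIF4G, recruits the helicase eIF4A and a small ribosomal subunit held by eIF3. eIF2 delivers the initiator tRNA and is recharged by the exchange factor eIF2B, and kinases that phosphorylate eIF2 alpha in stressed cells block this recharging. During elongation eEF1A brings aminoacyl-tRNA to the ribosome and eEF2 moves the ribosome along the mRNA, while eEF2 kinase inhibits eEF2. Excess protein synthesis is a known feature of neurons without FMRP, and the comparison asks here whether transcripts of the translation machinery itself differed between the genotypes.

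The table as a whole set the frame for the factor genes. *Fmr1* had 18.99, 19.45 and 19.70 FPKM in WT, against 23.10, 21.76 and 18.52 in libraries labelled *Fmr1* KO. Its level was therefore not lower in the latter (log2 change 0.12, adjusted p = 0.536 by limma, exact permutation p = 0.4), and the change was 0.05 without *Fmr1* KO replicate 1 and 0.21 without *Fmr1* KO replicate 3. The allele is not given in the sources used here, and a value over the whole locus does not check the labels where a transcript of the disrupted gene remains. The study checked FMRP and genotype in hippocampal tissue of mice, and no such check of these cultures is given in the sources used here. All directions below are those of the libraries labelled *Fmr1* KO against those labelled WT. Neuronal markers (*Rbfox3*, *Map2*, *Tubb3*, *Syt1* and *Snap25*) summed to 963 to 1056 FPKM over the 6 libraries, and astrocyte markers (*Gfap*, *Aqp4*, *Aldh1l1*, *Slc1a3* and *Gja1*) to 1081 to 1263 FPKM, so RNA of glia was present beside that of neurons. Of the 5 neuronal markers, 2 were higher and 3 lower in *Fmr1* KO, and 0 passed an adjusted p of 0.05. Their log2 changes ran from −0.16 for *Snap25* (libraries overlapping) to 0.26 for *Map2* (libraries separated). The 6 microglial markers summed to 5.05 to 7.66 FPKM in WT and to 1.21 to 2.45 in *Fmr1* KO libraries, without overlap, and of the 4 that were tested all were lower and 1 (*Lyz2*) passed an adjusted p of 0.05. The 5 markers of fibroblasts and mural cells summed to 49.4 to 55.1 FPKM in WT and to 37.7 to 45.8 in *Fmr1* KO, also without overlap. Of these, 3 were tested, all 3 were lower and 1 (*Bgn*, log2 change −1.15) passed an adjusted p of 0.05. *Dcn*, at means of 41.97 FPKM in WT and 34.84 in *Fmr1* KO, made up most of the sum, and its own libraries overlapped (log2 change −0.27). Those of *Pdgfrb* overlapped too (log2 change −0.05). *Col1a1* and *Col1a2*, too low to be tested, had higher means in *Fmr1* KO. The 5 markers of the oligodendrocyte lineage had sums of 157 to 180 FPKM in WT against 183 to 204 in *Fmr1* KO, and the 4 proliferation markers 27.6 to 33.1 against 32.7 to 38.2. In such bulk RNA, fewer cells of a type and less RNA per cell cannot be told apart, and the part of these cell types in the values of the factor genes was not tested.

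The factor genes spanned a wide range of levels. *Eef1a1*, the main eEF1A gene, was highest with a mean of 676.5 FPKM over the 6 libraries, followed by *Eef2* with 411.9. Next came *Eif4a2* (141.8), *Eef1a2* (137.1), which encodes the eEF1A isoform of mature neurons and muscle, and *Eif4g2* (113.1), an eIF4G relative that does not bind eIF4E. The lowest tested gene was *Eef2kmt*, a methyltransferase for eEF2, with 2.29 FPKM, and the median was 19.6. The 42 tested initiation genes summed to 1742 to 1839 FPKM per library and the 8 elongation genes to 1310 to 1444. The elongation genes, though few, thus summed to a large part of the initiation total but stayed below it in every library. All members summed to 3378, 3158 and 3206 FPKM in WT, against 3288, 3186 and 3269 in *Fmr1* KO libraries. The summed level thus overlapped between genotypes.

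**Figure D1:**
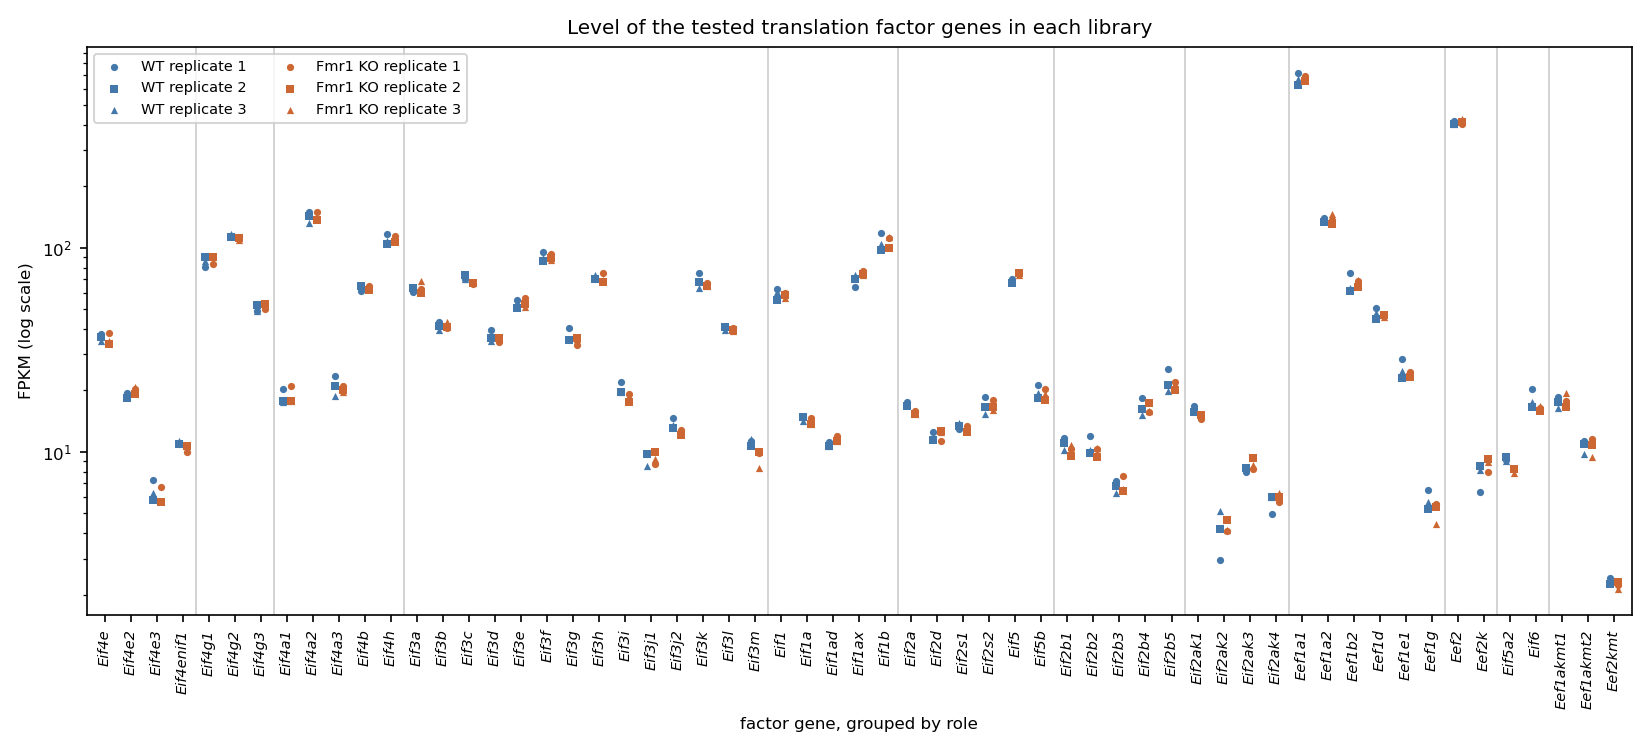
FPKM on a log scale of the 59 tested factor genes, grouped by role with grey lines between groups; each point is 1 library (blue WT, orange *Fmr1* KO; the shape gives the replicate number). The 6 points of a gene lie close together while genes range from 2.29 (*Eef2kmt*) to 676.5 FPKM (*Eef1a1*).

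The other 4 genes were not tested. *Eef1akmt3*, for a methyltransferase of eEF1A, had a mean of 0.0583 FPKM and *Eif4e1b*, an oocyte relative of eIF4E, a mean of 0.0179. *Eif2c5*, an older symbol of the Argonaute type, was listed at 0 in all 6 libraries. *Eif5a*, which helps the ribosome through difficult peptide bonds and is used by every cell, was also listed at 0 in all libraries, at both of its loci. *Gps2*, the other symbol listed with the chromosomal span of *Eif5a*, was at 0 too. An exact 0 for genes of this kind can be a failed estimate, so nothing is said about their RNA. A span shared with another symbol was listed for 25 of the 63 genes.

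Sequences around annotated transcription starts were examined because mRNAs of the translation machinery are known for pyrimidine-rich starts, and many of their genes for a CACGTG E-box, the site bound by MYC and related factors. RefSeq windows on GRCm38.p6, from 250 bases before to 50 bases after a start, were found for 49 of the 63 genes (64 windows). CACGTG, which reads the same on both strands, lay in a window of 12 of the 49 genes (24.5%), against 8.09% of all 27025 genes with a window. Among tested genes with a window it lay in 11 of 47 factor genes (23.4%) and in 12.03% of all 9767. By window the shares were 21.9% of those of the factor genes and 7.15% of all 32851. The motif is shown in capitals for 6 genes at different steps, with the distance of its first base from the start given after the coordinates.
Eef2, chr10:81176576-81176605, plus strand, 43 bases before the start: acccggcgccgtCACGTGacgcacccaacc
Eef2k, chr7:120842788-120842817, plus strand, 31 bases before: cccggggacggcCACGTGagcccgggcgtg
Eif1b, chr9:120492570-120492599, plus strand, 24 bases before: cgtgcggacggtCACGTGgcggcggcgcgc
Eif4e, chr3:138527192-138527221, plus strand, 64 bases before: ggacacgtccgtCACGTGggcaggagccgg
Eif4g1, chr16:20672661-20672690, plus strand, 54 bases before: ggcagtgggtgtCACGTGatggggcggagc
Eif5a2, chr3:28781148-28781177, plus strand, 117 bases before: cagggcgagcttCACGTGacggggcgggac
*Eif4e* and *Eif5a2* had a second CACGTG, 228 and 142 bases before the start, and *Eif4g1* had a second one from base 16 after it. *Eif5a* had the motif in more than 1 of its windows, which belong to different starts. The other genes with it were *Eif3a*, *Eif3f*, *Eif3k*, *Eif4a1* and *Eif4h*. The 11 tested genes with CACGTG had a median level of 67.5 FPKM and the 36 tested genes without it 19.5. Their median log2 changes between genotypes were 0.02, with 7 of 11 higher, and −0.02, with 16 of 36 higher.

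A C followed by at least 4 C or T, with the C within 5 bases of an annotated start, was found in 13 of the 49 genes (26.5%), against 21.2% of all genes with a window. Among tested genes it was found in 12 of 47 factor genes (25.5%) and in 23.7% of all. By this count the factor genes were near the background, though annotated starts can miss the base at which transcription begins. The pyrimidine runs are in capitals for 3 tested genes with long runs.
Eef1a1, chr9:78481705-78481734, minus strand: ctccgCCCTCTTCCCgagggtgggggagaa
Eif3f, chr7:108934405-108934434, plus strand: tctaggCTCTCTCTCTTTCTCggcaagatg
Eif3l, chr15:79075213-79075242, plus strand: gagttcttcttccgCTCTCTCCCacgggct
The 12 tested genes with such a run had a median log2 change of −0.01 and the 35 without it −0.01.

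No factor gene passed an adjusted p of 0.05 between *Fmr1* KO and WT (limma over 13195 loci, Benjamini-Hochberg), against 35 loci of the whole table (0.265%). The smallest adjusted p among the 59 was 0.222 by limma. At an unadjusted p below 0.05 there were 4 factor genes (6.78%), against 14.8% of all tested loci. Without *Fmr1* KO replicate 3 the count was 2, and the share over all loci was not taken for that setting. Of the 4 genes, *Eif5* was higher in *Fmr1* KO libraries (background 6.99%) and *Eif3m*, *Eif2a* and *Eif5a2* were lower (background 7.77%). The 3 libraries of one genotype lay wholly above those of the other for 2 genes that were higher in *Fmr1* KO, *Eif5* and *Eif1ad* (background 10.8%). They lay wholly below for 9 genes (background 10.3%), namely *Eif3c*, *Eif3i*, *Eif3j2*, *Eif3m*, *Eif2a*, *Eif2ak1*, *Eif4enif1*, *Eif4g2* and *Eif5a2*. Of the 59 estimates, 26 (44.1%) were above 0 and 33 below, against 51.7% above 0 over all tested loci. Their median log2 change was −0.02, against 0.005 over all tested loci. The number above 0 ranged from 19 (without WT replicate 2) to 33 (without WT replicate 1) when 1 library was left out. The estimates ran from −0.25 (*Eif3m*) to 0.19 (*Eef2k*). Their quartiles lay 0.10 apart, against 0.17 for all tested loci and 0.15 for those in the FPKM range of the factor genes. Estimates and 95% intervals of all 59 genes are shown in the plot of changes by role.

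**Figure D2:**
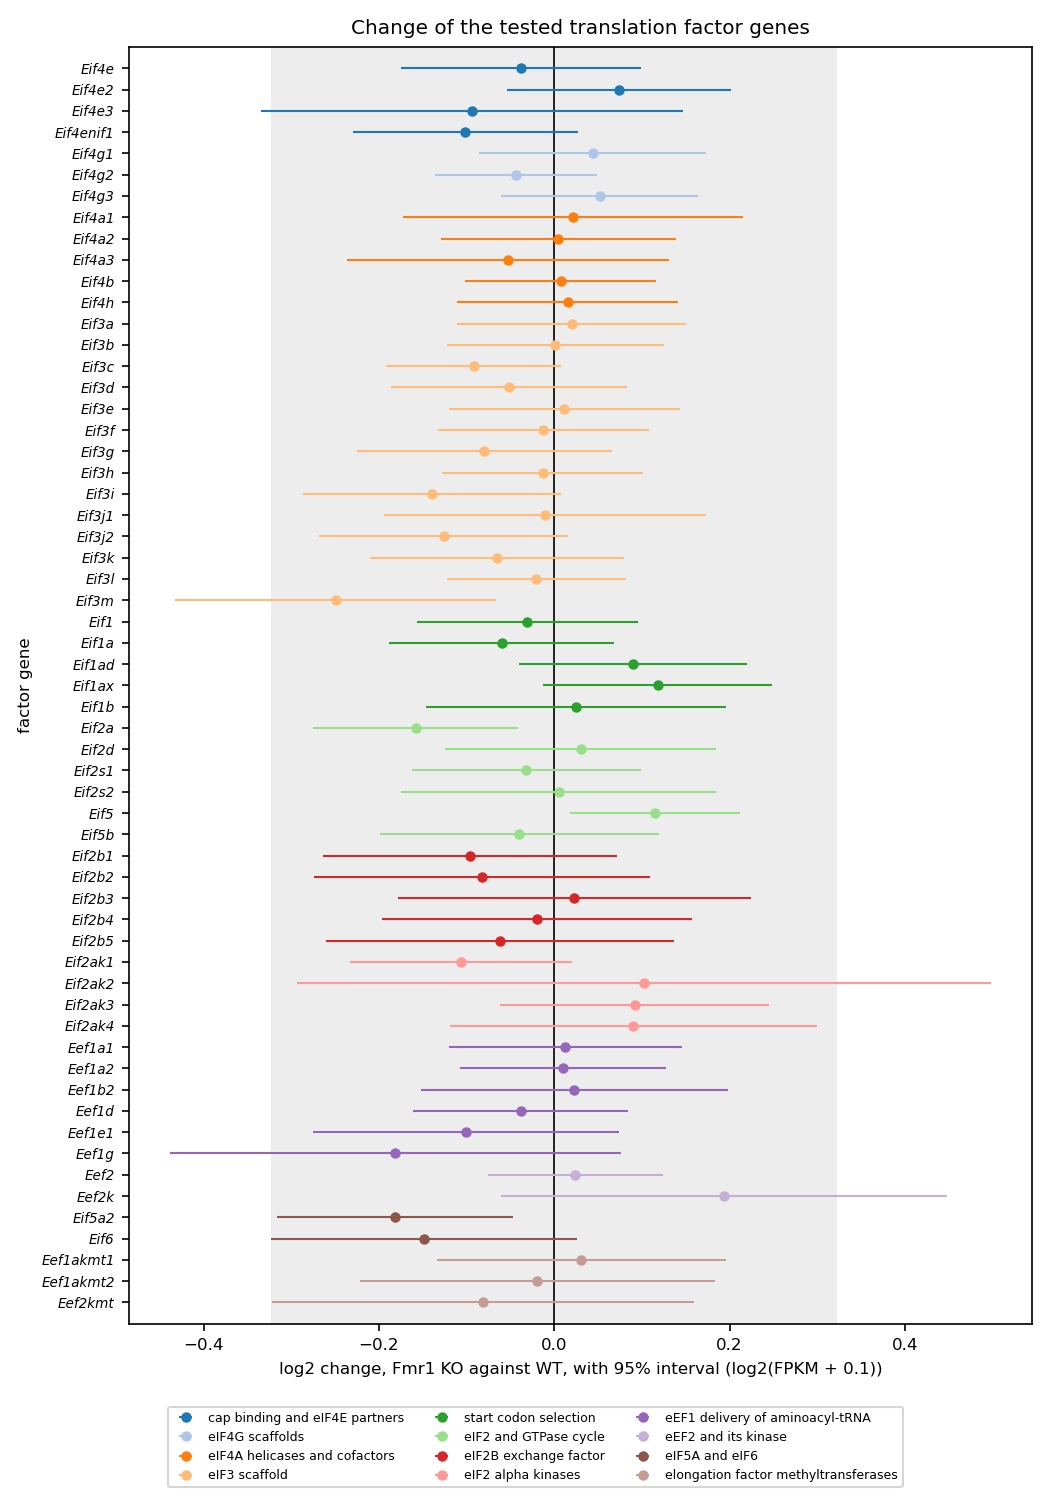
Log2 change of each tested factor gene, *Fmr1* KO against WT, with its 95% interval, coloured by role; the grey band marks a change of 1.25-fold in either direction. The intervals of 52 of 59 genes lie inside the band, and those of *Eif3m*, *Eif2a*, *Eif5a2* and *Eif5* do not reach 0.

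The intervals also say how large a difference these libraries leave possible. The 95% interval lay within 1.25-fold in either direction for 52 of 59 factor genes (88.1%), against 70.8% of the 11418 tested loci in the same range of FPKM. Within 1.5-fold lay the intervals of all 59 genes, against 95.9% of those loci. Levels were matched by range only: the median was 19.6 FPKM for the factor genes, against 10.2 over all tested loci. The intervals of the other 7 genes (*Eif3m*, *Eef2k*, *Eif2ak2*, *Eef1g*, *Eif4e3*, *Eef2kmt* and *Eif6*) passed 1.25-fold, and all but *Eif6* had means of 10.3 FPKM or less. The coefficient of variation between libraries was 5.89% at the median gene in WT, from 1.23% for *Eif4g2* to 26.6% for *Eif2ak2*. In *Fmr1* KO it was 4.06%, from 0.88% for *Eif5* to 12.1% for *Eef1g*.

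Cap recognition and the scaffold showed small estimates of both signs. *Eif4e*, the cap-binding protein, was at 37.6, 36.7 and 34.8 FPKM in WT, against 38.0, 33.6 and 34.8 in *Fmr1* KO libraries. The genotypes overlapped, with a log2 change of −0.04 (95% interval −0.17 to 0.10). For *Eif4e2*, a cap-binding homologue that represses translation, the log2 change was 0.07, and for *Eif4e3*, a homologue of low level, it was −0.09 (−0.33 to 0.15). The latter was −0.002 without WT replicate 1 and −0.17 without *Fmr1* KO replicate 1. *Eif4enif1*, which carries eIF4E into the nucleus, had a log2 change of −0.10 with separated libraries and an adjusted p of 0.448 by limma. Of the scaffolds, *Eif4g1* was at 80.3, 89.6 and 86.6 FPKM in WT, against 83.5, 89.97 and 90.9 in *Fmr1* KO, and *Eif4g3* at 49.2, 52.2 and 49.2 against 50.02, 53.1 and 53.0. Both overlapped between genotypes, and their log2 changes were 0.04 and 0.05. *Eif4g2* was slightly lower without overlap (log2 change −0.04, adjusted p = 0.663 by limma). The 5 genes of the helicase and its cofactors (*Eif4a1*, *Eif4a2*, *Eif4a3*, *Eif4b* and *Eif4h*) had 4 estimates above 0 and 1 below, between −0.05 and 0.02.

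Most genes of eIF3, the scaffold on the small ribosomal subunit, had estimates below 0. Of 14 tested subunit and subunit-associated genes, 11 were lower and 3 higher in *Fmr1* KO libraries (21.4% higher, against 51.7% of all tested loci). Their median log2 change was −0.04, and 1 had an unadjusted p below 0.05. That gene was *Eif3m*, for a subunit of the complex, on chr2:104886324-105017027 (GRCm38). It was at 11.26, 10.68 and 11.54 FPKM in WT, against 9.87, 9.98 and 8.35 in *Fmr1* KO. All 3 *Fmr1* KO libraries were below all WT libraries, and replicate 3 was the lowest. Its WT mean of 11.16 ± 0.44 FPKM (SD, n = 3) compared with 9.40 ± 0.91 in *Fmr1* KO (SD, n = 3), a ratio of 0.842, and the log2 change was −0.25 ± 0.08 (SE; adjusted p = 0.222 by limma). The table lists *Ccdc73* with the same span as *Eif3m*, at a mean of 1.93 FPKM and a log2 change of 0.21. *Eif3i* (log2 change −0.14), *Eif3j2* (−0.13) and *Eif3c* (−0.09) were also separated, with adjusted p of 0.366, 0.393 and 0.376 by limma. Without WT replicate 1 the changes of *Eif3i* and *Eif3j2* were −0.09 and −0.08. *Eif3a* and *Eif3b*, for large subunits, had log2 changes of 0.02 and 0.001. *Eif3j1* and *Eif3j2* share 99.7% of their aligned coding bases, so reads may have been split between them and their values are uncertain. Both were counted among the 11 lower genes.

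The count of lower eIF3 genes moved with 1 library. Without WT replicate 1, 9 of the 14 were lower and the median log2 change was −0.005. With the trend of each library with transcript length removed, a correction chosen after seeing the data, 9 were lower with a median of −0.03. For eIF2B, the 5-subunit factor that recharges eIF2, 4 of 5 genes were lower (median −0.06), but only 1 of 5 without WT replicate 1 (median 0.04), and none of the 5 had an unadjusted p below 0.05. WT replicate 1 had the highest FPKM of the 6 libraries for 28 of the 59 factor genes, among them 4 of 5 eIF2B genes, 7 of 14 eIF3 genes and 5 of 6 eEF1 genes. Its deviation from the mean of the 6 libraries decreased with spliced transcript length (Spearman −0.62 across the 59 genes, which share the library, and −0.44 across 12956 loci). In the other 5 libraries the Spearman correlation across the 59 genes ran from −0.14 (*Fmr1* KO replicate 1) to 0.34 (*Fmr1* KO replicate 3), and deviations from a shared mean are not independent between libraries. In WT replicate 1 the median deviation on the log2 scale was 0.14 for members of up to 2554 bases and 0.02 for longer ones. The Spearman correlation of the genotype change with length was 0.35 in all libraries and 0.01 without WT replicate 1. Without that library, 33 of 59 factor genes were higher and the median log2 change was 0.003.

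**Figure D3:**
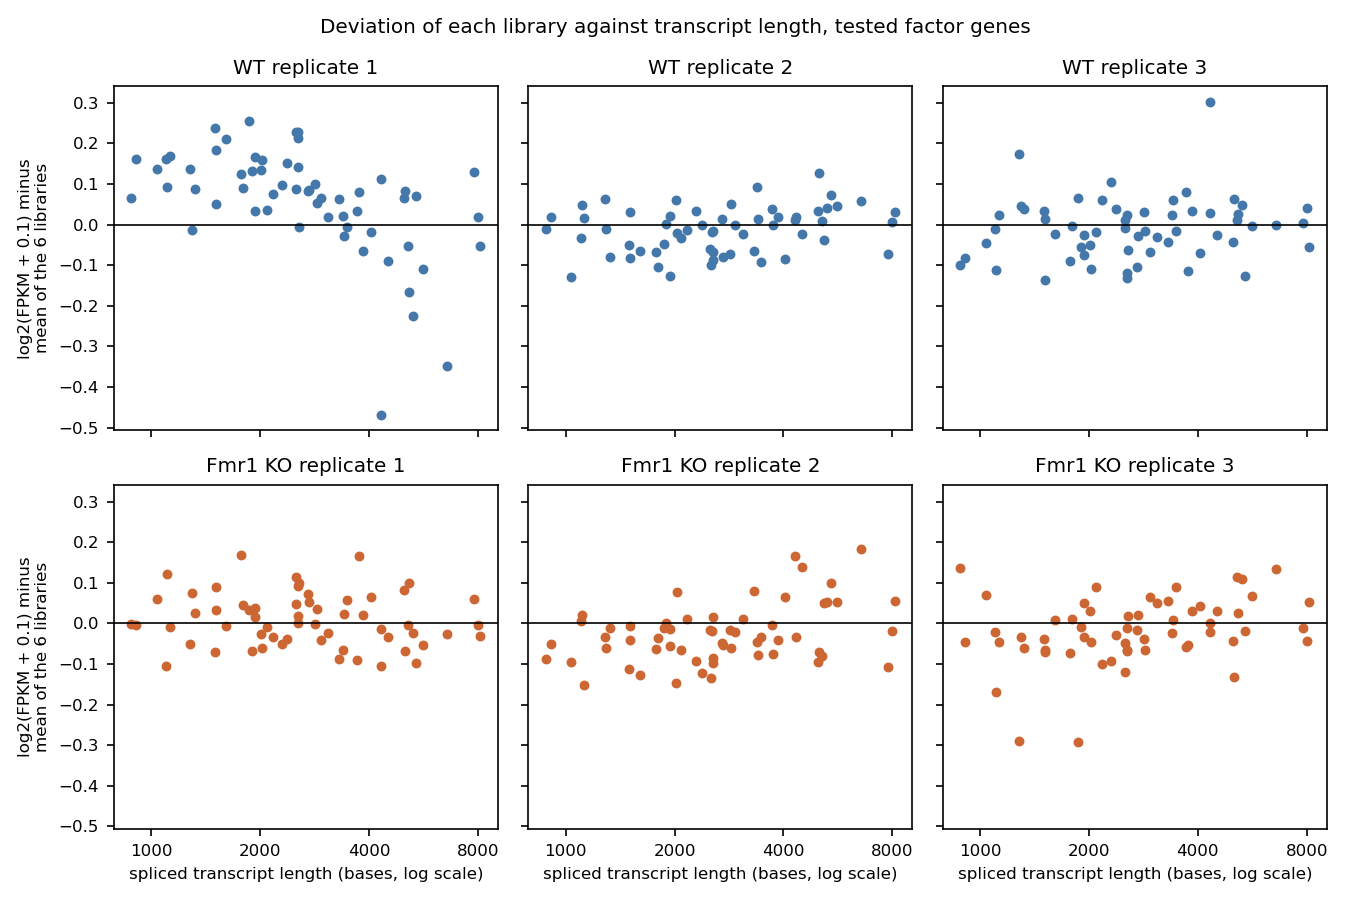
Deviation of log2(FPKM + 0.1) from the mean of the 6 libraries against spliced transcript length (bases, log scale) for the 59 tested factor genes, with a panel for each library (top row WT, bottom row *Fmr1* KO); each point is a gene. In WT replicate 1 short transcripts lie above 0 and several long ones below (Spearman −0.62), while the other 5 panels have correlations from −0.14 to 0.34.

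Genes of start codon selection and the eIF2 cycle held both a higher and a lower gene with an unadjusted p below 0.05. *Eif5*, which makes eIF2 hydrolyse its GTP when the start codon is found, was at 70.60, 67.43 and 68.20 FPKM in WT, against 74.84, 74.79 and 73.69 in *Fmr1* KO. All *Fmr1* KO libraries were above all WT libraries, and they differed little among themselves. Its log2 change was 0.11 ± 0.04 (SE; 95% interval 0.02 to 0.21; adjusted p = 0.267 by limma). *Eif5* lies on chr12:111538101-111546753. *Eif2a*, a tRNA-binding factor that is distinct from eIF2 alpha, lies on chr3:58521969-58557501. It was at 17.49, 16.74 and 17.60 FPKM in WT, against 15.78, 15.31 and 15.32 in *Fmr1* KO. The libraries were separated, with a ratio of means of 0.895 and a log2 change of −0.16 ± 0.05 (adjusted p = 0.223 by limma). *Serp1*, an endoplasmic reticulum protein gene listed with the same span, had a log2 change of 0.04. The eIF2 subunits themselves stayed near 0, with −0.03 for *Eif2s1* (alpha) and 0.005 for *Eif2s2* (beta). *Eif1ax*, an X-linked gene, encodes the eIF1A that scans with the ribosome. It had a log2 change of 0.12 with overlapping libraries (64.3, 70.2 and 73.5 FPKM in WT, against 77.3, 74.7 and 73.4 in *Fmr1* KO). Without WT replicate 1 it was 0.06.

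Among the 4 eIF2 alpha kinases, *Eif2ak1*, the haem-regulated kinase, was lower with separated libraries (log2 change −0.11, 95% interval −0.23 to 0.02, adjusted p = 0.419 by limma). The estimates for *Eif2ak2* (PKR, activated by double-stranded RNA), *Eif2ak3* (PERK, in the endoplasmic reticulum) and *Eif2ak4* (GCN2, a sensor of uncharged tRNA) were 0.10, 0.09 and 0.09. *Eif2ak2* was at 2.97, 4.18 and 5.14 FPKM in WT alone, and its estimate became −0.11 without WT replicate 1. That of *Eif2ak4* became 0.0005 without the same library, and 2 of the 4 kinase genes were then higher (median −0.04), against 3 of 4 in all libraries (median 0.09).

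Elongation genes overlapped between genotypes in all 8 cases, with 5 higher, 3 lower and a median log2 change of 0.01. *Eef2* was at 416.9, 405.1 and 403.1 FPKM in WT, against 404.9, 415.0 and 426.1 in *Fmr1* KO (log2 change 0.02, 95% interval −0.08 to 0.12). *Eef2k*, its kinase, was at 6.38, 8.49 and 8.14 against 7.996, 9.26 and 8.95. WT replicate 1 was the lowest value of *Eef2k*. The log2 change of 0.19 (interval −0.06 to 0.45, adjusted p = 0.465 by limma) became 0.07 without that library. *Eef1g*, for the gamma subunit of the eEF1B exchange complex, had a log2 change of −0.18 (interval −0.44 to 0.08), which was −0.10 without WT replicate 1 and −0.08 without *Fmr1* KO replicate 3.

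*Eif5a2*, the isoform of eIF5A with restricted expression, was at 9.15, 9.43 and 9.02 FPKM in WT, against 8.24, 8.21 and 7.86 in *Fmr1* KO. The libraries did not overlap, and the ratio of means was 0.881 (log2 change −0.18 ± 0.06, adjusted p = 0.223 by limma). It lies on chr3:28781273-28805420, with the CACGTG motifs noted above. *Eif6*, which keeps the large ribosomal subunit from joining too early, had a log2 change of −0.15 with overlapping libraries, and −0.07 without WT replicate 1. The plot of the 4 genes with the smallest p shows how small these differences were against the levels.

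**Figure D4:**
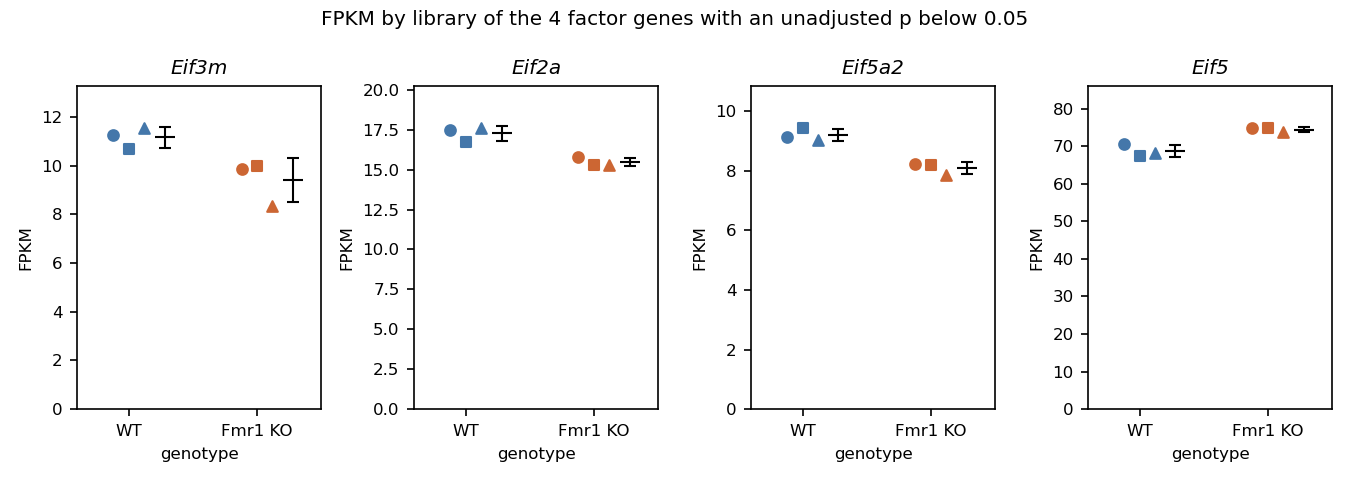
FPKM of *Eif3m*, *Eif2a*, *Eif5a2* and *Eif5* in each library (blue WT, orange *Fmr1* KO; shapes give the replicate number), with the mean and SD of each genotype in black and axes from 0. The genotypes do not overlap in any of the 4 genes, and the ratio of means ranges from 0.842 (*Eif3m*) to 1.083 (*Eif5*).

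The direction of these 4 genes held in all 16 settings run, the main fit among them. *Eif3m* and *Eif2a* had an unadjusted p below 0.05 in 16 of 16, *Eif5a2* in 15 and *Eif5* in 10. The 4 genes were picked by that p in the main fit, and every setting drew on the same 6 libraries. These counts are therefore no independent support, and summing loci by symbol could not alter these genes. Changing the FPKM minimum, dropping the trend of variance or adding the replicate block leaves a log2 change as it is. Under those settings their direction could not change. The log2 change of *Eif3m* ranged from −0.29 to −0.17, and that of *Eif2a* from −0.18 to −0.14. No setting brought any factor gene to an adjusted p below 0.05, the smallest over all settings being 0.129 by limma.

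Several factors are encoded by paralogous genes, one of which is often the neuronal form, and the ratio between paralogues within a library does not depend on how that library was scaled. *Eef1a2* over *Eef1a1* was 0.195, 0.213 and 0.201 in WT, against 0.195, 0.199 and 0.214 in *Fmr1* KO. This isoform ratio rises when neurons mature, and it differed between genotypes by −0.003 on the log2 scale (exact permutation p = 1). *Eif4a2* over *Eif4a1* was 7.38, 8.05 and 7.54 in WT, against 7.11, 7.69 and 7.91 in *Fmr1* KO (difference −0.02, exact permutation p = 0.9). The log2 differences were 0.01 for *Eif4g3* over *Eif4g1* (exact permutation p = 0.8), 0.06 for *Eif1b* over *Eif1* (0.6; 0.004 without *Fmr1* KO replicate 3 and 0.11 without *Fmr1* KO replicate 2) and −0.06 for *Eif4e3* over *Eif4e* (0.6). All 5 adjusted p were 1 (two-sided exact permutation tests, Benjamini-Hochberg), and 3 libraries against 3 cannot give less than 0.1. The ratio of *Eif5a2* to *Eif5a* was not computed because *Eif5a* was listed at 0.

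**Figure D5:**
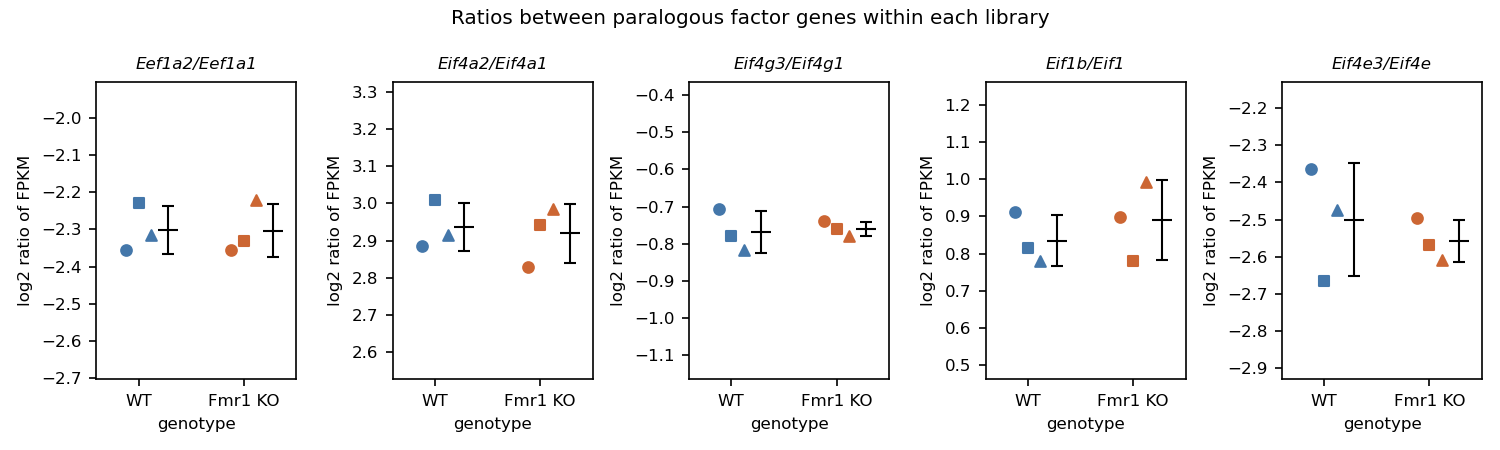
Log2 ratio of FPKM between paralogous factor genes in each library (blue WT, orange *Fmr1* KO; shapes give the replicate number), with the mean and SD of each genotype in black; every panel spans the same range on the log2 scale around its own mean. The genotypes overlap in all 5 ratios.

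The level of *Eif4a1* itself was uncertain. The pseudogene *Eif4a-ps4*, left out by the rule, was listed at 124 FPKM, far above *Eif4a1* at 18.7, and its transcript matched the *Eif4a1* coding sequence at 1217 of 1218 bases. Reads of *Eif4a1* could therefore have been assigned to the pseudogene. With both summed, an alternative added after seeing the data, the ratio of *Eif4a2* to *Eif4a1* was 0.958 to 1.05 over the 6 libraries instead of 7.11 to 8.05, and the genotypes differed by −0.03 on the log2 scale (exact permutation p = 0.6). The order of these paralogues by level thus depended on how their reads were counted, and the difference between genotypes was near 0 either way. *Eef1a1-ps1* was at 15.99 FPKM, far below *Eef1a1*.

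Genes of the pathway outside the rule were read from the same fit. Of 32 genes for binding proteins, release factors, poly(A)-binding proteins and their partners and other regulators, all were tested. Of these, 19 were higher and 13 lower, where 51.7% of all tested loci were higher, and 1 passed an adjusted p of 0.05. This was *Eif2s3y*, the Y-linked eIF2 gamma gene, at 9.26, 9.68 and 9.65 FPKM in WT, against 22.4, 21.03 and 19.6 in *Fmr1* KO (log2 change 1.13, adjusted p = 0.000183 by limma). Its X-linked partner *Eif2s3x* was at 6.73, 6.80 and 6.70 in WT, against 6.57, 5.85 and 6.25 in *Fmr1* KO (log2 change −0.12, adjusted p = 0.482 by limma). From the cross described, knockout pups are male and WT pups may be of either sex. The sex of the pups behind each library is not given, so sex and genotype cannot be told apart for this gene. The same limit holds for every other difference between the genotypes given here, that of the X-linked *Eif1ax* among them. Without *Eif2s3y* the log2 changes ran from −0.26 for *Eefsec*, the elongation factor for selenocysteine, to 0.14 for *Pabpc1*, the main poly(A)-binding protein, which was at 148.1 to 150.3 FPKM in WT, against 163.4 to 166.7 in *Fmr1* KO. Neither gene passed an adjusted p of 0.05. The 3 translational repressors that bind eIF4E (*Eif4ebp1*, *Eif4ebp2* and *Eif4ebp3*) had log2 changes of 0.02, 0.09 and −0.19, and *Cyfip1*, which partners with both FMRP and eIF4E, had 0.007.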

How the data were processed

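Total RNA from hippocampal cultures (3 WT and 3 *Fmr1* KO libraries) was sequenced. According to the methods, the authors trimmed the reads, aligned them to GRCm38 by TopHat2, assembled genes by Cufflinks and used Cuffdiff for the genotypes. For versions, annotation, library type and scaling, nothing is stated in the labels or methods. The deposited table holds FPKM per library, which was used, and the authors' group FPKM, fold changes, p-values and q-values, which were not. Read depth is unknown, so the spread between 3 libraries sets the precision.

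Loci with a mean of at least 1 FPKM in either genotype (13195) were fitted on log2(FPKM + 0.1) with R 4.3.3 and limma 3.58.1, using genotype alone and limma's trend of variance with level, and p-values were adjusted by Benjamini-Hochberg across all of them. Log2 changes are on this scale. In data simulated for this comparison over 13195 loci, with 200 changed, 0.5% were recovered at a log2 change of 0.25, 81.5% at 0.5 (12 false of 175 calls) and 94.5% at 1 (11 false of 200 calls). The changed loci were drawn at random from all tested loci, not from the factor genes. Ratios were compared by exact permutation (scipy 1.17.1). Named genes were those with an unadjusted p below 0.05, the 10 largest changes, the 5 highest levels, paralogue pairs, kinases, eIF2 subunits and any pathway gene called, and others were named after their values were seen. The members, gene lists and tests were chosen with earlier results of these data known. Sequences and window shares came from RefSeq on GRCm38.p6, lengths and coding sequences from GENCODE M21. The alternatives changed the pseudocount to 1 or 0.01 and the FPKM minimum to none or 5. Others were centred libraries, no trend, each library left out, a replicate block, loci summed by symbol and, added after seeing the data, removal of the trend with transcript length and *Eif4a1* summed with its pseudogene.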

Additional observations from a re-analysis of the deposited data

How the results depend on the processing

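No factor gene passed an adjusted p of 0.05 under any alternative run. The number of loci called over the whole table (35) was 15 with no FPKM minimum, 54 with a minimum of 5, 21 by limma without the trend, 100 with the length trend removed and 14 to 20 with 1 library left out. Factor genes at an unadjusted p below 0.05 (4) numbered 2 to 5 with 1 library left out, with the lowest count without *Fmr1* KO replicate 3, and the median log2 change ranged from −0.05 to 0.003. Same-numbered libraries of the genotypes correlated at 0.243, 0.058 and 0.08 in their deviations, and differently numbered ones at −0.152 to 0.078. The value for replicate 1 was thus the highest of all pairs. The labels do not say whether the numbers pair the samples, and the main fit left them unpaired. With the replicate number as a block, 65 loci and 0 factor genes were called, and 6 factor genes had an unadjusted p below 0.05. The share of all tested loci at that p was taken for the main fit only (14.8%). Counts of factor genes at that p under the alternatives therefore have no background beside them. Of 434 values of 29 named genes under the alternatives, 20 changed sign, all of genes with a log2 change of at most 0.10, and 0 crossed the threshold. Many of the 434 could not change sign. The FPKM minimum, the trend of variance, the replicate block and loci summed by symbol left each log2 change as it was. With the length trend removed, *Eif1* became 0.00202 and *Eif4g3* −0.00232. With 1 library left out, log2 changes ran from −0.0786 to 0.00576 for *Eif1*, −0.106 to 0.28 for *Eif2ak2*, −0.000414 to 0.0819 for *Eif4g1*, −0.0367 to 0.0611 for *Eef1a1*, −0.0322 to 0.0453 for *Eef1a2*, −0.0336 to 0.0986 for *Eif1b*, −0.0599 to 0.077 for *Eif2s2*, −0.0575 to 0.0899 for *Eif4a1*, −0.0459 to 0.0472 for *Eif4a2* and −0.0884 to 0.000896 for *Eif4e*. The genotype differences in log2 ratio ran from −0.0433 to 0.0328 for *Eef1a2*/*Eef1a1*, −0.0492 to 0.027 for *Eif4a2*/*Eif4a1*, −0.0164 to 0.0383 for *Eif4g3*/*Eif4g1*, 0.00365 to 0.11 for *Eif1b*/*Eif1* and −0.137 to 0.0112 for *Eif4e3*/*Eif4e*. The cause of these shifts was not tested. In simulated data, a log2 change of 0.25 was recovered at 0.5% of the changed loci, which were drawn from all tested loci. The median SE was 0.060 for the factor genes, against 0.079 over all tested loci. Recovery among the factor genes themselves was not tested.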
